A study of Mus musculus with 4 samples.

Results

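The receptors for glutamate and GABA, the main excitatory and inhibitory transmitters of the forebrain, were measured 6 h into a permanent stroke in the mouse. The set held every gene whose symbol is that of a subunit of the AMPA (Gria), NMDA (Grin), kainate (Grik) or delta (Grid) glutamate receptors, a metabotropic glutamate receptor (Grm), or a subunit of the GABA-A (Gabra, Gabrb, Gabrg, Gabrd) or GABA-B (Gabbr) receptors. Symbols were reached through the RefSeq accession of each array probe. Of 33269 features on the array, 36 were such genes, with 56 probes, and the brightest probe stood for a gene. Another 5 receptor genes, Gabbr2, Grik3, Grin3a, Grm2 and Grm5, had no probe matched in this way and were not analysed here.

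Tissue came from male C57BL/6J mice, 9 weeks of age, in which the middle cerebral artery was blocked for good by a filament inside the vessel and saline was injected into the cerebral ventricle directly afterwards. After 6 h the ischemic core, where blood flow falls most, and the penumbra around it were cut out with a scalpel, together with healthy core and healthy penumbra pieces. Each of 4 two-color arrays carried ischemic RNA in 1 dye and the corresponding healthy RNA in the other: core replicates 1 and 2 and penumbra replicates 3 and 4. The dyes were swapped within each region, with Cy5 labelling the ischemic side on replicates 1 and 3 and Cy3 on replicates 2 and 4. The labels name 3 mice per group with neurological grades G1 and G2, without saying which mice an array held or whether RNA was pooled, and they do not say from where in which animals the healthy pieces were taken. Each dye-swapped pair was therefore counted as 1 replicate, and calls were made by size with no p-value. For ratios of ischemic to healthy tissue, every ± below is the SD between 2 arrays, which holds dye bias. Where core is set against penumbra, it is the SD between 2 dye-matched differences, each of 1 core and 1 penumbra array. A dye bias shared by the arrays cancels in those, and differences between arrays remain. Neither SD measures spread between animals.

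AMPA, kainate and NMDA receptors are cation channels opened by glutamate; AMPA receptors carry most fast excitation, and NMDA receptors, which need the subunit Grin1, admit calcium and are central to excitotoxic death in ischemia. Metabotropic glutamate receptors and the GABA-B receptor signal through G proteins. GABA-A receptors are chloride channels built from several subunits, most often alpha, beta and gamma, and those with the delta subunit lie outside synapses.

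Promoter sequences are shown for 4 genes that stood near the ends of the range in the comparisons that follow: Gabbr1 and Grin1 had low ratios in the penumbra, Grin2d had the highest there, and Gabrb2 was higher in the core piece than in the penumbra piece. Each is the 250 bases before a transcript start, 5′ to 3′, from RefSeq on GRCm38.p6. Capitals mark matches, on either strand, to a GC box (GGGCGG), an E-box (CACGTG) or a TATA box (TATAAA), which do not overlap one another as searched here.
Gabbr1, chr17:37045716-37045965, plus strand: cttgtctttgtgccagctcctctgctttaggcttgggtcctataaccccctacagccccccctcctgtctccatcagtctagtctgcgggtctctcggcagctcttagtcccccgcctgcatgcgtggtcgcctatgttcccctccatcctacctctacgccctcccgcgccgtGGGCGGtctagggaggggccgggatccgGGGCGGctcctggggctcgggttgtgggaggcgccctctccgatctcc
Grin1, chr2:25319188-25319437, minus strand: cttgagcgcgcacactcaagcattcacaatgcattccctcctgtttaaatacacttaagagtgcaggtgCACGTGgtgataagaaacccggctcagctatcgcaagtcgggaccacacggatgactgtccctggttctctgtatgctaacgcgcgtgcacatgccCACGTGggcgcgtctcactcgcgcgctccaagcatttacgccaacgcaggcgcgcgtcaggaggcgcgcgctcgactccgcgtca
Grin2d, chr7:45866682-45866931, minus strand: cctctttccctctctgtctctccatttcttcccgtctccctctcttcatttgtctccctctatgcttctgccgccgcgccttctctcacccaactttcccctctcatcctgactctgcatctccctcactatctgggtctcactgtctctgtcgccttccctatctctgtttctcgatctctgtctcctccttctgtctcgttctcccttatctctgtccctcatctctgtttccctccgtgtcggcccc
Gabrb2, chr11:42420190-42420439, plus strand: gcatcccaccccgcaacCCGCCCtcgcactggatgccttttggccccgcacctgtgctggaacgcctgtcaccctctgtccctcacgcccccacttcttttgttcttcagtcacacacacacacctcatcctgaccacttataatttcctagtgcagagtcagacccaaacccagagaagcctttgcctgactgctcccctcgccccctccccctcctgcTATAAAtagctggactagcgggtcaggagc
Gabrb2 has 2 more windows, further along the chromosome, with 0 matches. Of the 36 genes, 23 had such a window, 30 windows in all. The GC box was in 12 of these 30 windows and in 32.7% of all 32851 windows of the same length. The E-box was in 1, that of Grin1, and in 6.02% of all windows, and the TATA box in 4 and in 12.4%. The letters of the cAMP response element (TGACGTCA), of the AP-1 site (TGAGTCA) and of the left part of the neuronal repressor element RE1 (TTCAGCACC) were in 0 of the 30 windows, and in 1.55%, 4.46% and 0.301% of all windows. A match describes the letters only, and no match says only that the letters are not in the window.

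Signal limited what could be seen. The share of spots that rose clearly over background ran from 76.1% to 79.4% by array and dye, and 0 spots were saturated. Of the 36 genes, 34 were well above background in every channel of every array and entered all comparisons. Gabra6, known from cerebellar granule cells, was above background in 0 channels, and Grm6, known from bipolar cells of the retina, on 1 array of 2 in each tissue; neither entered a comparison. All 8 pan-neuronal markers were above background in every channel. Ratios are relative to all genes: scaled to the 10 spike-in control transcripts instead, every ratio would be lower, by 0.48 log2 in core tissue and 0.46 in penumbra tissue, and all 34 receptor genes would lie below 0 in both regions.

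In ischemic core, receptor transcripts stood within a narrow band around the level in healthy core. Over the 34 genes the log2 ratio of ischemic to healthy core had a median of -0.01 against -0.01 over all 24537 features. None of the 34 passed the 2-fold rule, which asks for a mean of at least 2-fold and at least 1.5-fold the same way on both arrays; of all features 0.31% passed upward and 0% downward. A smaller rule asked for a mean of at least 0.32 log2 and the same sign on both arrays, and again 0 receptor genes passed, beside 4.4% of all features upward and 0.982% downward. All 34 means lay within 0.25 log2 of 0, as did 90.3% of all features.

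Subunits of the NMDA receptor and of inhibitory receptors were among the lowest means in the core. Grin2a, the NMDA subunit that prevails in adult forebrain, had log2 ratios of -0.07 and -0.26 on core replicates 1 and 2, a mean of -0.16 ± 0.14. Gabrb1, a beta subunit of the GABA-A receptor, had -0.02 and -0.26 (mean -0.14 ± 0.17). Gabbr1, the GABA-B subunit that binds GABA, had -0.05 and -0.21 (mean -0.13 ± 0.12). All 3 were below 0 on both arrays and short of the bound of the smaller rule. In each the array with ischemic RNA in Cy3 gave the lower ratio, and the mean was of about the size of the SD.

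At the upper end of the core the arrays disagreed for the leading genes. Grm3, a group II metabotropic receptor of neurons and astrocytes, had 0.40 and -0.07 (mean 0.17 ± 0.33). Gabrd, the delta subunit of extrasynaptic GABA-A receptors, had -0.17 and 0.42 (mean 0.12 ± 0.42). Each of these genes was high on 1 array and below 0 on the other, so no shift beyond the spread between arrays was seen. Grm8, a presynaptic group III receptor, had 0.15 and 0.08 (mean 0.12 ± 0.05), and Gabra4, an alpha subunit, had 0.09 and 0.12 (mean 0.10 ± 0.02). Both were above 0 on both arrays, by 1.08-fold in the mean of each. In all, 7 genes were above 0 on both core arrays and 7 below, and in 20 the arrays had opposite signs; of all features 26.9% were above on both and 28% below.

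By class, the core medians were -0.05 for 4 AMPA, -0.07 for 6 NMDA, -0.03 for 4 kainate and 0.10 for 5 metabotropic glutamate receptor genes, and 0.02 for 12 GABA-A subunits. AMPA subunits lay between -0.09 and 0.02, NMDA subunits between -0.16 and 0.07, and metabotropic receptors between 0.01 and 0.17.

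**Figure D1:**
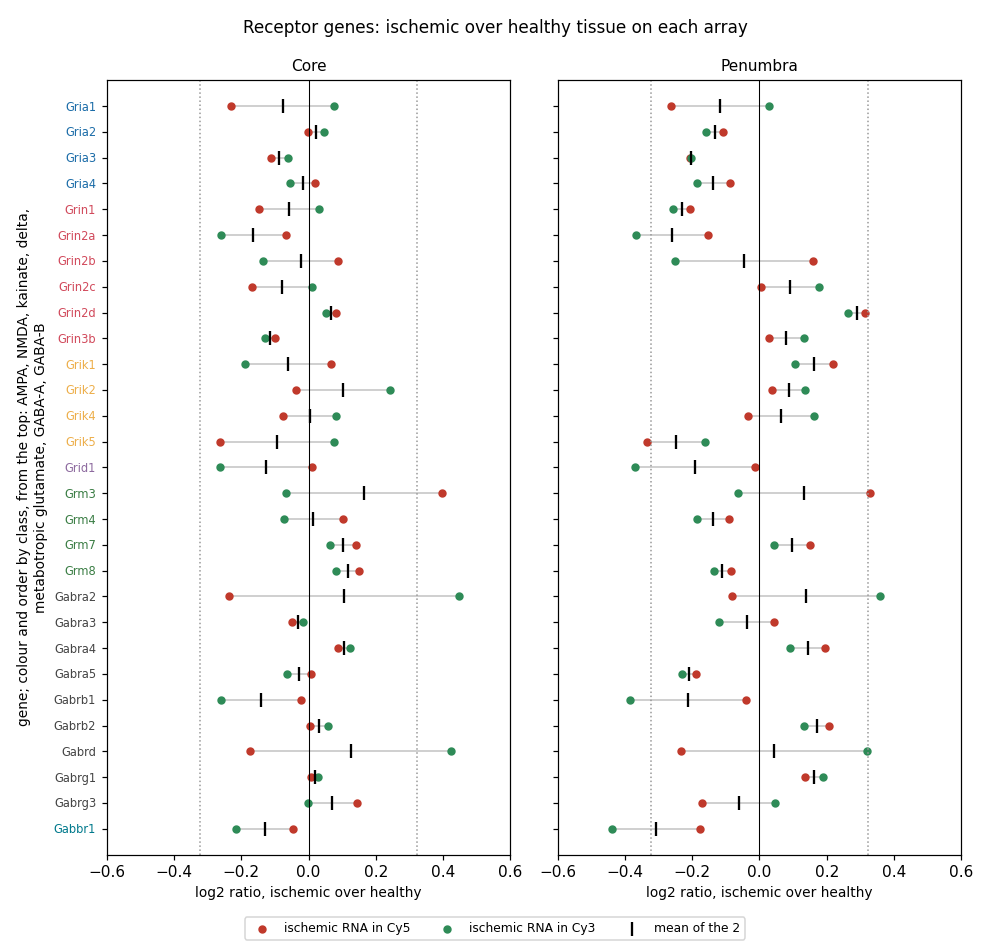
Log2 ratio of ischemic to healthy tissue for 29 of the 34 measured receptor genes in core and penumbra; points are the 2 arrays of a region by the dye of ischemic RNA, bars their mean, and dotted lines the bounds of the smaller rule at 0.32 log2. No mean drawn crosses a dotted line; in the penumbra Gabbr1 comes nearest at -0.31.

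In ischemic penumbra the receptor genes lay around the level in healthy penumbra much as all features did. Over the 34 genes the log2 ratio had a median of -0.04 against -0.01 over 24926 features, and 29 of 34 means lay within 0.25 log2 of 0, against 85.2% of features. None passed the 2-fold rule (0.241% of all features upward, 0.00401% downward). By the smaller rule 1 gene was lower and 0 were higher, beside 2.44% of all features lower and 5.35% higher; with the mean over each gene's probes the first count was 0. On both arrays 14 genes were below 0 and 10 above, against 32.4% and 30.3% of all features.

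Among the lowest, Gabbr1 had log2 ratios of -0.18 and -0.44 on penumbra replicates 3 and 4 (mean -0.31 ± 0.19), just short of 0.32, and Grin2a had -0.15 and -0.37 (mean -0.26 ± 0.15), also short of it. Grik5, a kainate subunit that needs a partner to form a channel, had -0.33 and -0.16 (mean -0.25 ± 0.12). All 3 genes were below 0 on both penumbra arrays. Other processing carried them past the bound: Gabbr1 had -0.40 with Agilent's processed signals and -0.37 with median centring, Grin2a -0.33 and -0.35, and Grik5 -0.35 with median centring. Both settings also raised the number of all features lower by the smaller rule. It was 608 of 24926 in the main processing, 2116 of 24927 with processed signals and 1210 of 24926 with median centring.

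The highest penumbra ratio was that of Grin2d, an NMDA subunit of slow channels, with 0.31 and 0.26 and a mean of 0.29 ± 0.04 (1.22-fold higher). Gabrb2 had 0.21 and 0.13 (mean 0.17 ± 0.05), and Gabrg1, a gamma subunit, had 0.14 and 0.19 (mean 0.16 ± 0.04). All 3 were above 0 on both arrays, and none reached 0.32. With median centring they were lower, at 0.20 for Grin2d, 0.07 for Gabrb2 and 0.06 for Gabrg1. NMDA subunits thus lay on both sides of 0: Grin1, the subunit every NMDA receptor holds, had -0.21 and -0.26 (mean -0.23 ± 0.04), beside Grin2d at the top of the set.

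The AMPA subunits had the tightest range in the penumbra among classes of 4 or more genes, all with negative means. Gria1 had -0.12, Gria2, the subunit that keeps calcium out of AMPA channels, -0.13, Gria3 -0.20 and Gria4 -0.14. Of these 4, 3 were below 0 on both arrays, and Gria1 had -0.26 and 0.03. A dimmer probe of Gria4 gave 0.14 and the dimmest -0.22, so the sign of Gria4 differs between its probes. The kainate subunits ran from -0.25 to 0.16 (Grik1), the 5 metabotropic receptors had a median of 0.10, and the GABA-A subunits had a median of -0.01. The 8 pan-neuronal markers had a median of -0.19 in the penumbra and -0.09 in the core, and 0 passed the smaller rule in either region. The arrays had opposite signs for 3 of the 8 in the penumbra and 4 in the core. Their median SD was 0.17 in the penumbra and 0.25 in the core. A change in neurons and a change in RNA per neuron cannot be told apart in tissue pieces. The part of either in the receptor ratios was not tested.

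Core and penumbra responses were then set against each other within each dye orientation, where a shared dye bias cancels. Over the 34 genes the difference, core minus penumbra, ran from -0.22 to 0.23 log2 with a median of 0.04 against 0.01 over all features. None passed the 2-fold rule (0.0396% of features upward, 0.0198% downward) or the smaller rule (1.46% upward, 1.78% downward). On both dye orientations 17 genes were above 0 and 8 below, beside 35.6% and 30.9% of features. All 4 AMPA subunits were among those above 0 on both, with differences from 0.04 to 0.16. This rests on the brightest probes: a dimmer probe of Gria4 had -0.12 ± 0.26 and the dimmest 0.14. The dimmer probe of Gria2 had 0.01 ± 0.24 and that of Gria3 0.13 ± 0.25, with SDs larger than the means. That of Gria1 had 0.08 ± 0.06. Grin2d had -0.23 and -0.21, a mean of -0.22 ± 0.01, the lowest, and Grm8 had 0.24 and 0.22, a mean of 0.23 ± 0.01, the highest. Across the 34 genes the mean ratios of the regions correlated at r = 0.66, and across all features at r = 0.73; genes are not independent replicates, and all arrays came from 1 slide. Grm8 was the 1 gene above 0 on both core arrays and below 0 on both penumbra arrays, as were 2.73% of features, and Grin3b the 1 gene with the reverse, as were 3.31%.

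As an alternative that takes the 4 arrays as separate samples, limma with Benjamini-Hochberg adjustment called 0 of 34 receptor genes in the core, the penumbra or their difference at an adjusted p of 0.05, beside 1.26%, 1.37% and 0% of 25251 features. At an unadjusted p of 0.05 these counts were 0, 7 and 0. The share over all features at that level was not counted, so the 7 cannot be read as a departure from it. With a dye coefficient in the model 4 receptor genes were called in the core, 1 higher and 3 lower, beside 28.3% of features. In the penumbra 20 were called, 7 higher and 13 lower, beside 42.2%, and in the difference 0, beside 6.93%. These p-values measure spread between arrays that may carry the same RNA, and the calls changed with the dye term.

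**Figure D2:**
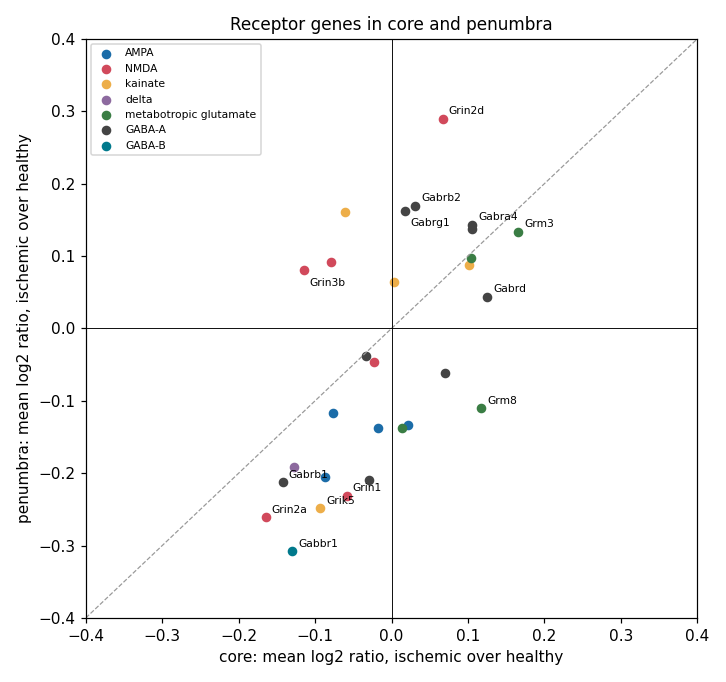
Mean log2 ratio of ischemic to healthy tissue in the core (x axis) and the penumbra (y axis) for 29 of the 34 receptor genes, coloured by class; the dashed line marks equal ratios. Values drawn reach from -0.31 (Gabbr1) to 0.29 (Grin2d) in the penumbra and from -0.16 (Grin2a) to 0.17 (Grm3) in the core.

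Receptor transcripts lay further apart between core and penumbra pieces than between ischemic and healthy tissue of either region. Healthy core was set against healthy penumbra on single-channel log2 levels, within each dye. Such differences are taken across arrays and hold differences between arrays, while the ratios are taken within 1 array, so the measures are unlike. None of the 34 genes passed the 2-fold rule (0.313% of features higher in the core piece, 0.819% lower). By the smaller rule 7 were higher and 5 lower in healthy core, beside 6.96% and 7.32% of all features. Of the 34 differences 19 lay within 0.25 log2 of 0, against 78% of features. In both dyes 14 genes were higher in the core piece and 17 lower, beside 41% and 32.1% of features.

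Grin2a led the genes higher in the core piece. The log2 levels of Grin2a were 10.66 and 10.70 in healthy core, 10.59 and 10.43 in ischemic core, 10.00 and 10.08 in healthy penumbra and 9.84 and 9.71 in ischemic penumbra. Every core value lay above every penumbra value, and the healthy pieces differed by 0.64 ± 0.03 (1.56-fold). Gria4, an AMPA subunit of fast channels in interneurons, was higher in healthy core by 0.45 ± 0.14, and its other 2 probes gave 0.38 and 0.29. Gabra3, an alpha subunit, was higher by 0.45 ± 0.05, and Grik4, a partner subunit of kainate receptors, by 0.38 ± 0.13. Without the pair of core replicate 1 and penumbra replicate 3, Grik4 differed by 0.29, short of the bound.

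Gabrb2, a beta subunit common in synaptic GABA-A receptors of the adult brain, differed by 0.47 and 0.45 in the 2 dyes (mean 0.46 ± 0.01), higher in the core piece in both. Other GABA-A subunits were spread over both sides of 0. On chromosome 5, Gabrg1 differed by -0.29 ± 0.06, Gabra2 by -0.40 ± 0.54, Gabra4 by -0.07 ± 0.17 and Gabrb1 by 0.05 ± 0.04. On chromosome 7, Gabra5 differed by -0.05 ± 0.04 and Gabrg3 by -0.08 ± 0.03. The call of Gabra2 as lower ended without the pair of core replicate 2 and penumbra replicate 4. It differed by -0.78 in that pair (Cy5) and by -0.02 in the other (Cy3). The call also ended with Agilent's processed signals (-0.31).

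Grik2 and Grm8 were lower in the core piece with both dyes past the bound. Grik2, a channel-forming kainate subunit, differed by -0.51 and -0.50 (mean -0.51 ± 0.00, 1.42-fold). Grm8 differed by -0.34 and -0.36 (mean -0.35 ± 0.02). The log2 levels of Grik2 were 9.05 and 8.92 in healthy core, 9.01 and 9.16 in ischemic core, 9.55 and 9.42 in healthy penumbra and 9.59 and 9.56 in ischemic penumbra. Every penumbra value of Grik2 was above every core value. Gria1, an AMPA subunit of plastic synapses, was just short of the bound at -0.31 ± 0.07.

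Some markers of cell types differed between the same pieces by more than any receptor gene. The 10 markers of striatal projection neurons had a median difference of -1.85, with 9 past the 2-fold rule as lower in healthy core, and the 7 choroid plexus markers one of -3.36, all 7 lower. Mean log2 levels over the striatal list were 11.73 to 11.76 in healthy core and 13.43 to 13.45 in healthy penumbra. The 10 markers of cortical projection neurons had a median of 0.51, 8 of them past the smaller rule as higher, with mean levels of 12.19 to 12.25 and 11.58 to 11.64. The 8 oligodendrocyte markers had -0.79, and the 8 pan-neuronal markers 0.20. No striatal, cortical or pan-neuronal marker was below background in any channel, and the part of these markers in the receptor differences was not tested.

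**Figure D3:**
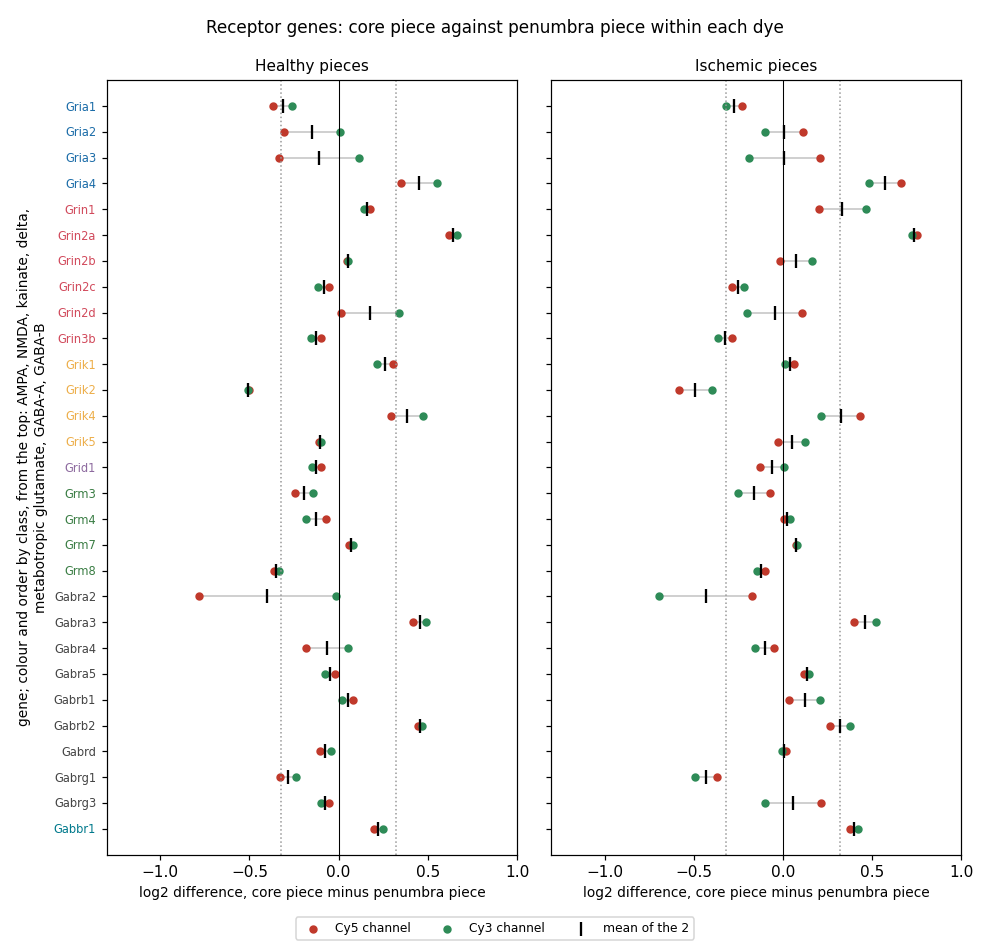
Log2 difference of the core piece minus the penumbra piece for 29 of the 34 receptor genes in healthy and in ischemic tissue; points are the 2 dyes, bars their mean, dotted lines the bounds of the smaller rule at 0.32 log2. Grin2a stands highest in both panels. The 2 points lie far apart for Gabra2, where core replicate 2 minus penumbra replicate 4 is the lower in both panels. That pair is in Cy5 in healthy tissue and in Cy3 in ischemic tissue.

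Ischemic core against ischemic penumbra, measured in the other channel of the same arrays, gave 8 receptor genes higher and 5 lower by the smaller rule, beside 8.88% and 8.86% of features, and 0 by the 2-fold rule (0.442% and 0.912%). Grin2a differed by 0.74 ± 0.02, Gria4 by 0.57 ± 0.13 and Gabra3 by 0.46 ± 0.09. Gabrb2 differed by 0.32 ± 0.08, short of the bound. Gabbr1 passed here at 0.40 ± 0.03, with 0.22 ± 0.03 in healthy tissue, and Grin1 at 0.33 ± 0.19, with 0.16 ± 0.03. Grik4 passed at 0.32 ± 0.16. The call of Grin1 ended without the pair of core replicate 2 and penumbra replicate 4 (0.20). That of Grik4 ended without the pair of core replicate 1 and penumbra replicate 3 (0.21). In both dyes 14 genes were higher in the core piece and 11 lower, beside 41.5% and 32.3% of features.

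Among genes lower in the ischemic core piece, Grik2 differed by -0.49 ± 0.13, Gabrg1 by -0.43 ± 0.09, Gabra2 by -0.43 ± 0.37 and Grin3b, an NMDA subunit known from motor neurons, by -0.32 ± 0.06. Without the pair of core replicate 2 and penumbra replicate 4, Gabra2 differed by -0.17 and Grin3b by -0.28, both short of the bound. Grin3b, close to the bound, also fell short of it with median centring. Grm8 differed by -0.12 ± 0.03 and was not called. The log2 levels of Gabrg1 were 10.40 and 10.41 in healthy core, 10.41 and 10.43 in ischemic core, 10.64 and 10.74 in healthy penumbra and 10.78 and 10.93 in ischemic penumbra. Its penumbra levels lay above all its core levels.

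**Figure D4:**
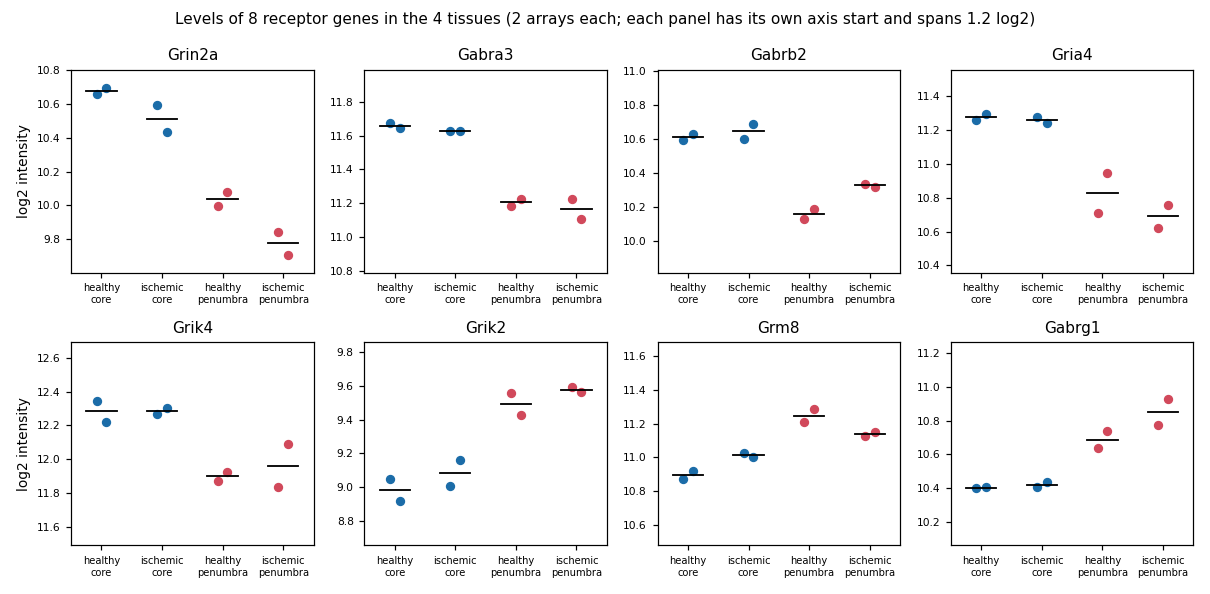
Single-channel log2 intensity of 8 receptor genes in the 4 tissues; points are the 2 arrays, bars their mean, blue core and red penumbra. In Grin2a, Gabra3, Gabrb2, Gria4 and Grik4 all core points lie above all penumbra points, and in Grik2, Grm8 and Gabrg1 below.

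Of the 36 genes 13 had more than 1 probe, and in 12 of these at least 2 probes passed the filter on background and could be compared; Gabbr1 had 1 probe that passed. Grin2b, the NMDA subunit of early development and forebrain, had 5 probes with core means from -0.15 to 0.12 and penumbra means from -0.07 to 0.20. The 3 probes of Grm7, a group III presynaptic receptor, had penumbra means from 0.10 to 0.11. Both probes of Gabra5 were negative in the penumbra, at -0.21 and -0.27. In the penumbra the widest gap between probes was 0.36 log2, for Gria4.

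Partners of these receptors, from 4 lists of scaffold, auxiliary and related genes, were set beside the shares over all features given above, 4.4% higher and 0.982% lower in the core and 5.35% and 2.44% in the penumbra. Of 15 measured scaffolds and anchors of glutamate receptors, 0 passed the smaller rule in the core; in the penumbra 1 was higher, Dlg1 (0.35 and 0.38, mean 0.37 ± 0.02), and 1 lower, Dlg4, which encodes PSD-95, (-0.59 and -0.12, mean -0.35 ± 0.33). Among 8 auxiliary subunits of AMPA and kainate receptors, Cacng5 was lower in the core (-0.23 and -0.54, mean -0.39 ± 0.21) and Cnih2, a chaperone of AMPA receptors, lower in the penumbra (-0.04 and -0.62, mean -0.33 ± 0.40). Of 12 scaffolds and partners of GABA receptors 1 was lower in each region: Kctd8, an auxiliary subunit of the GABA-B receptor, in the core (-0.30 and -0.35, mean -0.33 ± 0.04) and in the penumbra (-0.43 and -0.49, mean -0.46 ± 0.04). Dlg4 and Cnih2 had SDs about as large as their means. Among other GABA and glycine receptor subunits 0 of 5 passed in the core and 0 of 6 in the penumbra, where the glycine receptor subunit Glrb had -0.22 ± 0.13. List medians ran from -0.04 to 0.05 in the core and from -0.09 to -0.01 in the penumbra.

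Several lists of cell type markers had medians farther from 0 in the penumbra than the receptor genes. Choroid plexus markers had a median of 0.71, with 7 of 7 past the smaller rule as higher, thalamic markers 0.45 (4 of 7 higher), and meningeal markers 0.39 (3 of 6 higher). Thalamic markers averaged 9.03 to 9.20 log2 in healthy and 9.51 to 9.58 in ischemic penumbra, and 5 of 7 were above background in every channel. Cortical projection neuron markers had -0.15 (3 of 10 lower) and striatal markers -0.17 (1 of 10 lower). In the core, oligodendrocyte precursor markers had -0.31, and striatal markers 0.17. The part of these shifts in the receptor ratios was not tested.

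**Figure D5:**
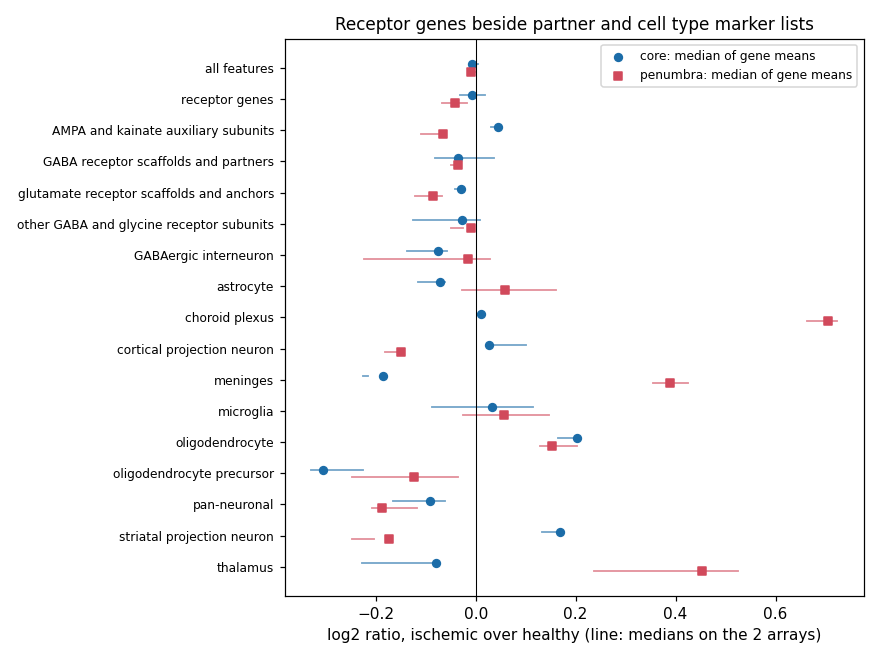
Median log2 ratio of ischemic to healthy tissue over the receptor genes, all features, 4 lists of partner genes and 11 lists of cell type markers; circles are the core, squares the penumbra, and lines join the medians on the 2 arrays, and a median of gene means can lie off its line. The receptor genes lie at -0.01 and -0.04, while choroid plexus markers reach 0.71 in the penumbra.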

How the data were processed

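Spot intensity in both dyes came from the deposited scanner output, for which the submitters' processing notes and the file headers name Agilent Feature Extraction 11.0.1.1. A table of log10 ratios, Cy5 over Cy3, was also deposited by the authors; its values matched Agilent's processed signals on every array to within 5e-06 (column medians -0.0195, 0.00509, -0.0181 and -0.00874 for arrays 1 to 4), so they served through those signals as an alternative. By array, the median Cy3 signal lay between 192 and 225.5 (background 64 to 66) and the median Cy5 signal between 284 and 310 (background 70 to 71).

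Signals were corrected with normexp (offset 50) and loess within arrays in limma 3.58.1 (R 4.3.3), control spots and outlier spots at weight 0, and turned to ischemic over healthy. Single-channel levels followed Aquantile, except with Agilent's processed signals, which were used with no further normalization between arrays. Probes entered that both arrays of at least 1 tissue measured well above background. A RefSeq accession table (GRCm38.p6) gave a symbol to 23374 of 41174 probes. Tables and plots used Python 3.11.15, pandas 2.3.3 and matplotlib 3.10.9. The size rules and limma were tested on simulated data, with the same residual spread for every feature and changes in the core alone. Comparisons between pieces were not covered by it. Named with values were, among those reported, genes past a size rule and the 4 highest and 4 lowest means of a region; Grin1, Gria1 to Gria4 and the other genes named by probe, class or difference were chosen after their values were seen. Some receptor genes that entered the counts are not reported here by name and are not drawn. Members and lists were chosen with earlier results of these data known. Alternatives were Agilent's processed signals, median centring, no filter, the mean over probes, spike-in scaling, each array left out, each dye alone and limma over arrays. Between pieces, an array was left out together with its dye-matched partner, which is the same as 1 dye alone.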

Additional observations from a re-analysis of the deposited data

Results flagged for a closer look

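In 2 receptor genes every core array moved one way and every penumbra array the other. Grm8, a presynaptic metabotropic receptor, had log2 ratios of 0.15 and 0.08 in the core and -0.09 and -0.14 in the penumbra, a difference of 0.23 log2; of all features 2.73% were above 0 on both core arrays and below 0 on both penumbra arrays. Grin3b, an NMDA subunit, had -0.10 and -0.13 in the core and 0.03 and 0.13 in the penumbra, a difference of -0.19 log2, a direction shared by 3.31% of features. Across animals the difference was not tested. Over arrays, limma with a dye coefficient gave adjusted p = 0.056 for Grm8 and 0.11 for Grin3b, and without it 1 for both, so neither passed 0.05.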

How the results depend on the processing

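Receptor genes past the smaller rule numbered 0 in the core, 1 in the penumbra, 0 in the difference between regions, 12 between healthy pieces and 13 between ischemic pieces. Scaling to spike-in transcripts moved the core to 33, all lower (median -0.48), and the penumbra to 28, all lower (median -0.51); by its construction it lowers every ratio of a region by 1 amount. In the penumbra Agilent's processed signals gave 3, median centring 4 (median -0.082), the mean over probes 0 (median -0.0058) and limma over arrays with no dye coefficient 0. In the difference median centring gave 1 (median 0.10). In the core, the penumbra and their difference, leaving out 1 array keeps its partner's dye bias. Between pieces it removes a whole dye-matched pair and leaves 1 dye alone. Counts then were 2 without core replicate 1 and 1 without core replicate 2 in the core, 6 without penumbra replicate 3 and 3 without penumbra replicate 4 in the penumbra, and from 1 to 3 in the difference, 11 to 14 between healthy and 10 to 14 between ischemic pieces. Medians ran -0.031 to 0.020, -0.067 to -0.017, 0.023 to 0.064, -0.063 to -0.0046 and 0.0011 to 0.050 in the same order. Healthy pieces had a median of -0.0046 with Cy3 alone, and ischemic pieces 0.050 with Cy5 alone, -0.027 with processed signals, 0.056 with median centring and 0.052 with the mean over probes. Where not stated above, the cause of a change was not tested. None of the called receptor genes changed sign under these alternatives. Counts over all features changed too, and some are given below.

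Across all features the 2-fold rule gave, higher and lower, 76 and 0 in the core. With processed signals it gave 229 and 15, and with spike-in scaling 31 and 30. In the penumbra it gave 60 and 1, 189 and 30 and 29 and 41. For the difference it gave 93 and 81 with processed signals against 10 and 5. These signals gave 206 and 707 for healthy pieces against 78 and 204, and 267 and 794 for ischemic pieces against 110 and 227. The smaller rule gave, higher and lower, 1079 and 241 in the core and 1333 and 608 in the penumbra, 1737 and 1378 and 2362 and 2116 with processed signals, and 136 and 20963 and 116 and 19972 with spike-in scaling. With median centring it gave 1027 and 271 in the core and 1059 and 1210 in the penumbra. Without replicates 1 to 4 in turn, their own regions had 1546 and 1015, 1613 and 607, 2069 and 1803 and 1711 and 750. Between healthy pieces it gave 1734 and 1822, with Cy3 alone 2029 and 2079 and with Cy5 alone 1936 and 2229. Ischemic pieces gave 2210 and 2204, 2730 and 2779 and 2427 and 2351 in that order. The difference gave 369 and 449, with median centring 723 and 588 and without 1 array 635 to 1292 and 853 to 1011. No paired analysis was possible because the 4 arrays carry 4 different replicate numbers, so no number could serve as a block; ischemic and healthy RNA are paired within each array by its ratio, and regions were matched by dye alone. The number of arrays and signal over background limit the precision.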
